A study of Mus musculus with 6 samples.

Results

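The genes described here are 8 genes of neurogenic progenitors and neuroblasts, taken by their symbols: Hes6, Insm1, Tfap2c, Gadd45g, Myc, Mycn, Cd24a and Dcx. All 8 had a row among the 17006 genes of each table. They were read in bulk RNA sequencing of primary neural stem cells, which were grown from the subventricular zone of C57BL/6 mice. The young group came from mice of 2 months and the aged group from mice of 15 to 18 months, with 3 libraries each. For both ages, tissue pieces from 5 mice made up a pool, and the dissociated cells then grew in a medium for proliferation. The values thus belong to cultures. The labels give no sex, passage number or culture date, and they do not say whether the 3 libraries of a group came from separate pools of mice. The p-values therefore measure the spread between these libraries, which may in part be technical.

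In the adult subventricular zone, stem cells give rise to dividing intermediate progenitors, which give rise to neuroblasts that migrate to the olfactory bulb. Proneural transcription factors switch on genes of commitment, among them Hes6, Insm1 and Gadd45g, while Notch effectors of the HES family hold cells in the stem state. MYC proteins drive growth and division of progenitors, and CD24 and doublecortin are classic surface and cytoskeletal markers of migrating neuroblasts. CD24 is also carried by ependymal cells and by other epithelia.

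Of the 8 genes, 4 had an entry in the RefSeq promoter table (build GRCm38.p6). The letters shown are the 250 bases before the start of transcription, 5′ to 3′ on the gene's strand. Those of Hes6 and Gadd45g are shown because both genes are known targets of proneural factors. Capitals mark the E-box CAGCTG, a form bound by many bHLH factors, and the E-box CACGTG, the form bound by MYC with MAX. Both read the same on either strand.
Hes6, chr1:91413223-91413472, minus strand: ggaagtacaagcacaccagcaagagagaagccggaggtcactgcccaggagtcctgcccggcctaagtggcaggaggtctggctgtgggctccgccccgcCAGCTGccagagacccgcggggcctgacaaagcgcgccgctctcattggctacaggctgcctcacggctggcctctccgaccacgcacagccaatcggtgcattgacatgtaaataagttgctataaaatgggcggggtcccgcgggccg
Gadd45g, chr13:51846425-51846674, plus strand: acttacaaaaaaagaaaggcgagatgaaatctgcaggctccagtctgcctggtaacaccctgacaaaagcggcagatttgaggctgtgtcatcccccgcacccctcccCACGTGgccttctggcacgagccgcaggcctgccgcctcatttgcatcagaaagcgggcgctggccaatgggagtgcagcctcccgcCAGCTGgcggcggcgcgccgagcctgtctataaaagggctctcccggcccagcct

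The Hes6 window held CAGCTG 150 bases before the start, and the window of the other Hes6 start in the table held it as well, 171 bases before. The Gadd45g window held CAGCTG 55 bases and CACGTG 142 bases before the start. Neither motif lay in the window of Mycn or in the 2 windows of Dcx. Of 32851 windows in the table, 13% held CAGCTG, 6.02% held CACGTG and 0.849% held both. The shown windows of Hes6 and Gadd45g held 64% and 62% G and C, against 41.6% and 44.8% in those of Dcx. A match of letters is a description of the window and not a binding site.

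Each library has an FPKM value per gene, which is fragments per kilobase of transcript scaled to library size. Steps in the low values put the depth at 5210000 to 5430000 counted reads per library, and this estimate gives the reads behind each value below. Across genes, log2 values of libraries of the same age correlated at 0.988 to 0.990 (Pearson), and those of different ages at 0.986 to 0.988. The stem cell label was checked against its markers: Fabp7 lay at 2662 to 2878 FPKM, Vim at 1522 to 1688 FPKM, Nes at 255.8 to 275.2 FPKM, Slc1a3 at 186.8 to 201.5 FPKM and Sox2 at 165.03 to 185.6 FPKM. Others of the 12 genes of this list were low, with Hopx at 5.00 to 7.86, Gfap at 3.39 to 4.86 and Prom1 at 0.93 to 1.65 FPKM. Without overlap between the ages, 4 of the 12 were higher and 3 lower in aged libraries (8.98% and 8.58% of all genes tested). Sox2 and Slc1a3 were among the higher, and Nes and Vim among the lower. Markers of neuroblasts and neurons were mixed. Dcx stayed under 1 FPKM, Stmn2 was listed at 0 in 5 libraries and at 0.10 FPKM in aged 1, Slc17a7 lay at 0 to 0.24 FPKM and Rbfox3 at 0.36 to 0.86 FPKM. Others of the same lists were well above the filter, with Stmn1 at 400.4 to 447.2 FPKM, Gap43 at 199.5 to 243.2 FPKM, Map2 at 119.97 to 131.1 FPKM, Syn1 at 10.69 to 12.85 FPKM, Tubb3 at 8.83 to 12.69 FPKM, Camk2a at 8.52 to 9.51 FPKM and Syp at 6.52 to 8.60 FPKM.

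By level, the order was Cd24a, Myc, Hes6, Gadd45g, Insm1, Mycn, Dcx and Tfap2c, by means over the 6 libraries of 73.3, 61.6, 57.1, 28.1, 8.25, 2.99 and 0.502 FPKM for the first 7, with Tfap2c near 0. Neighbours in this order overlapped in their values in 2 cases. In aged libraries Cd24a (lowest value 64.43 FPKM) overlapped Myc (highest value 64.46 FPKM), and Myc overlapped Hes6 there. In young libraries these 3 genes were separate, with the lowest Cd24a value at 78.85 FPKM, Myc at 58.65 to 66.77 FPKM and the highest Hes6 value at 57.74 FPKM. Gadd45g, Insm1, Mycn, Dcx and Tfap2c each lay apart from their neighbours in all 6 libraries.

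The comparison of aged with young asks how these genes differ with the age of the donor mice. Cd24a was the only 1 of the 8 genes to pass, and it was lower in aged libraries. In every aged library Insm1 was lower than in any young library but did not pass. Hes6, Gadd45g, Myc and Mycn overlapped between the ages. Dcx was higher in each aged library, at very low level. The test was limma on log2(FPKM + 1) with Benjamini-Hochberg adjustment over the 11912 genes whose mean reached 1 FPKM. Of these, 0.722% passed at an adjusted p under 0.05, 0.395% lower and 0.327% higher in aged libraries. Of the 8 genes, 6 were in that test, and Dcx and Tfap2c lay under the filter. The groups did not overlap in 2 of these 6, both lower in aged libraries, where 17.6% of all genes tested did not overlap and 8.58% did so in that direction. At an unadjusted p under 0.05 by limma, 2 of the 6 were lower in aged libraries, against 5.55% of all genes tested. The median log2 difference was -0.19 over the 6 genes and 0.003 over all genes tested. In bulk RNA, fewer cells of a type and less RNA per cell cannot be told apart.

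**Figure D1:**
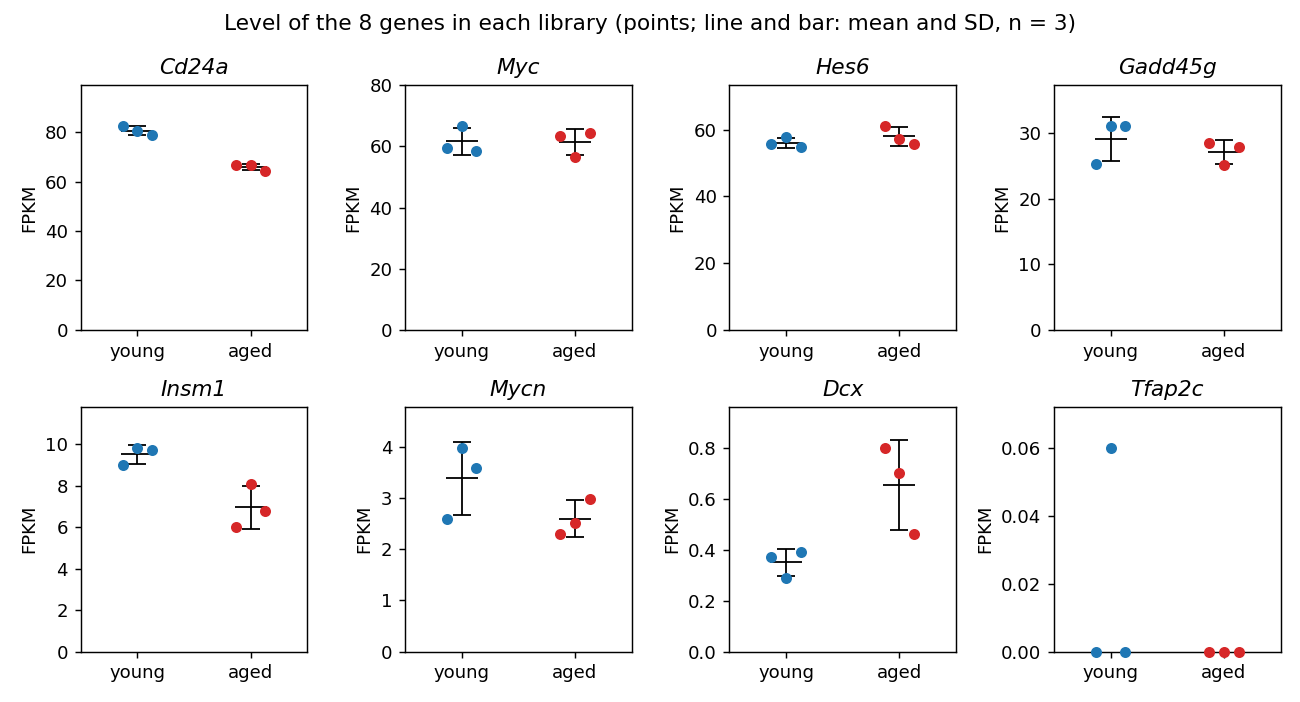
FPKM of each of the 8 genes (vertical axis from 0, a scale of its own per gene) in the 3 young and 3 aged libraries, with a point per library, and the mean and SD of each group drawn for all but Tfap2c. The aged points of Cd24a and Insm1 lie below the young ones, those of Dcx lie above, and the other genes overlap.

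**Figure D2:**
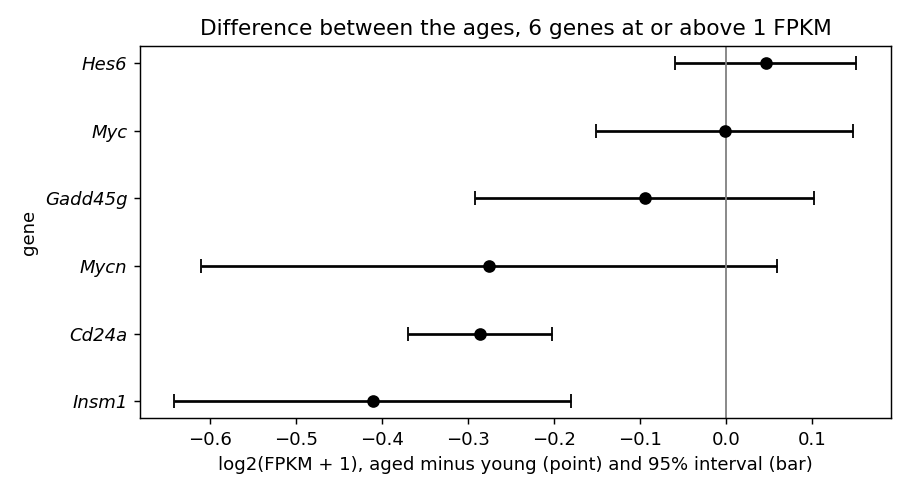
Difference of log2(FPKM + 1), aged minus young (horizontal axis), for the 6 genes in the test, with the 95% interval from limma, not adjusted for the number of genes. The intervals of Cd24a (-0.37 to -0.20) and Insm1 (-0.64 to -0.18) lie below 0, and the other 4 include 0.

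Insm1 (gene 53626, mm10 chromosome 2, 146221997 to 146225020) encodes a zinc finger repressor with a SNAG domain that drives progenitors towards neuronal and endocrine fates. It was at 9.01, 9.85 and 9.73 FPKM in young libraries 1 to 3 and at 6.01, 8.08 and 6.79 FPKM in aged libraries 1 to 3. Every aged value was below every young value, and aged 2 lay nearest to the young group. The means were 9.53 ± 0.454 and 6.96 ± 1.05 FPKM (SD, n = 3 each), a ratio of 0.730, resting on about 160.1 and 113.3 estimated reads per library. The log2 difference was -0.41 ± 0.10 (SE), with an unadjusted p of 0.00315 and an adjusted p of 0.147 by limma. Without aged 2 the difference was -0.51, with a limma adjusted p of 0.0618.

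Hes6 (gene 55927, chromosome 1, 91411483 to 91414038) encodes a HES family member that counters HES1 and promotes differentiation. It was at 55.77, 57.74 and 54.85 FPKM in young and at 61.19, 57.09 and 55.79 FPKM in aged libraries. The groups overlapped, and aged 1 held the highest value. The log2 difference was 0.05 ± 0.05 (SE), with a 95% interval from -0.06 to 0.15 and a limma adjusted p of 0.772. Tfap2c (gene 21420, chromosome 2, 172545678 to 172558622), a transcription factor of the AP-2 family that acts in basal progenitors of the cortex, was listed at 0 in 5 libraries and at 0.06 FPKM in young 2. That value is about 0.915 estimated reads, so no comparison between the ages is possible at this depth.

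Other factors of the same families and steps are given next, beside the 0.722% of all genes tested that passed. Of 14 proneural and E protein genes listed, 10 had a row and 4 were in the test, of which 0 passed. Neurod1 lay at 0.44 to 0.68 FPKM and Neurog2 at 0 to 0.08 FPKM. Among HES and HEY repressors, 3 of 7 genes with a row were in the test and 0 passed. Hes1 and Hey1 overlapped between the ages, and Hes5, a Notch effector, was at 6.52 to 9.0 FPKM (young) against 8.95 to 11.04 FPKM (aged) (limma adjusted p = 0.3625). Of 8 tested genes of SNAG factors and the LSD1-CoREST complex, the partners of INSM1, 0 passed. Hmg20b was at 41.65 to 46.58 and 49.83 to 49.96 FPKM, and Kdm1a at 57.61 to 58.95 and 54.29 to 59.7 FPKM. The AP-2 genes Tfap2a, Tfap2b and Tfap2e lay under the filter, at 0 to 0.66 FPKM.

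The list of intermediate progenitor and forebrain interneuron factors held genes on both sides. Of its 24 genes with a row, 17 were in the test and 1 passed, the Notch ligand Dll3, which was higher in aged libraries. Its young mean was 13.2 ± 0.744 FPKM and its aged mean 18.4 ± 1.72 FPKM (SD, n = 3 each), and limma gave an adjusted p of 0.0478. Its direction was kept in all 17 alternatives, but the call was lost in 10, among them those without young 1, young 2, young 3, aged 1 or aged 2 (limma adjusted p 0.0895 to 0.172). At an unadjusted p under 0.05, 4 were higher and 3 lower in aged libraries, where 11.9% of all genes tested passed that level. Pax6, a homeobox factor of neural progenitors, was at 9.38 to 10.16 FPKM (young) against 7.42 to 8.49 FPKM (aged). Dlx2, an interneuron factor, was at 1.6 to 2.34 and 1.04 to 1.12 FPKM, and Gsx1, a ventral patterning factor, at 14.57 to 18.37 and 18.91 to 21.7 FPKM. The groups did not overlap for these 3 genes, whose limma adjusted p ran from 0.219 to 0.286. Sox4 and Sox11, which act in new neurons, overlapped between the ages. The list median was -0.044.

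Gadd45g (gene 23882, chromosome 13, 51846675 to 51848475) encodes a small stress-response protein that is switched on as neural progenitors leave the cycle. It was at 25.22, 31 and 31.09 FPKM in young and at 28.39, 25.07 and 27.88 FPKM in aged libraries. Young 1 lay within the aged range, so the groups overlapped. The log2 difference was -0.09 ± 0.09 (SE), with a 95% interval from -0.29 to 0.10 and a limma adjusted p of 0.75. Without young 1 the difference was -0.19, and without aged 2 it was -0.041, with a limma adjusted p of 0.391 and 0.900. Its relatives were lower in level and also overlapped, with Gadd45a at 17.37 to 21.25 FPKM (young) against 13.95 to 19.57 FPKM (aged), and Gadd45b at 1.83 to 2.54 and 1.31 to 2.16 FPKM.

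Of the MYC genes, Myc (gene 17869, chromosome 15, 61985341 to 61990361) was at 59.5, 66.77 and 58.65 FPKM in young and at 63.56, 56.71 and 64.46 FPKM in aged libraries. The groups covered nearly the same range. The means were 61.6 ± 4.46 and 61.6 ± 4.24 FPKM (SD, n = 3 each), with a log2 difference of -0.001 and a 95% interval from -0.15 to 0.15. Mycn (gene 18109, chromosome 12, 12936093 to 12941836), the MYC gene of embryonic neural progenitors, was at 2.59, 3.99 and 3.58 FPKM in young and at 2.29, 2.52 and 2.99 FPKM in aged libraries. Young 1 lay within the aged range. The log2 difference was -0.28 ± 0.15 (SE), with a 95% interval from -0.61 to 0.06 and a limma adjusted p of 0.525. It rests on about 31.9 to 57.9 estimated reads per library, and it was -0.41 without young 1 and -0.18 without young 2. Mycl, the other family member, was at 5.4 to 5.93 FPKM (young) against 5.88 to 7.63 FPKM (aged), with overlap.

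MYC partners and targets are given beside all genes tested, of which 0.722% passed and 11.9% had an unadjusted limma p under 0.05. At that first share, 0 passing among so few genes says little about them. Of 14 tested genes of the MYC and MAX network, 0 passed and 0 had an unadjusted p under 0.05, and the median log2 difference was -0.006. Max, the obligate partner, was at 26.4 to 32.35 FPKM (young) against 26.89 to 33.27 FPKM (aged). Of 27 tested MYC target genes of ribosome making and growth, 0 passed, 1 was higher and 1 lower at an unadjusted p under 0.05, and the median was -0.008. Rrp1b, a nucleolar protein, was at 16.36 to 18.0 FPKM (young) against 12.84 to 14.71 FPKM (aged) (limma adjusted p = 0.126). Cdk4, a cell cycle kinase, was at 354.7 to 370.4 and 372.1 to 391.5 FPKM (limma adjusted p = 0.392). Ncl and Npm1, abundant nucleolar proteins, overlapped between the ages.

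Cd24a (gene 12484, chromosome 10, 43579169 to 43584265) encodes a small glycoprotein that is anchored in the membrane by a lipid. It was at 82.59, 80.55 and 78.85 FPKM in young and at 66.85, 66.62 and 64.43 FPKM in aged libraries. The 3 values of each group lay close together, and the groups were far apart. Cd24a was lower in the aged libraries: the young mean was 80.7 ± 1.87 FPKM and the aged mean 66.0 ± 1.34 FPKM (SD, n = 3 each), a ratio of 0.818. These means rest on about 793.9 and 628.9 estimated reads per library. In limma the log2 difference was -0.29 ± 0.04 (SE), adjusted p = 0.0119. The coefficient of variation was 2.32% in young and 2.03% in aged libraries. Counting error alone would give about 3.55% and 3.99% at these reads, so the spread within a group was below the estimated counting error. Whether the libraries of a group came from separate pools is not given, so age cannot be told apart from pool or culture here. The difference was -0.27 to -0.30 in all alternatives run, and the call was lost in several, among them those without limma's trend (adjusted p = 0.101) and without young 1 (0.0609) or young 2 (0.0630).

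Dcx (gene 13193, chromosome X, 143855842 to 143933396) encodes doublecortin, a microtubule-binding protein of migrating neuroblasts. It was at 0.37, 0.29 and 0.39 FPKM in young and at 0.8, 0.7 and 0.46 FPKM in aged libraries. Every aged value was above every young value, and aged 3 lay nearest to the young group. These values rest on about 8.36 estimated reads per young and 15.1 per aged library. An exact two-sided permutation test gave p = 0.1, the smallest that 3 against 3 libraries allow. With no filter on low values, limma gave an unadjusted p of 0.0218 and an adjusted p of 0.382. The doublecortin relatives Dclk1 and Dclk2 lay at 43.65 to 49.51 and 43.68 to 46.5 FPKM over the 6 libraries, and 0 of 8 tested genes of that family and its partners passed.

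Other genes of neuroblasts and young neurons also lay on both sides. Of 24 genes with a row, 18 were in the test and 0 passed, and the median log2 difference was -0.036. At an unadjusted p under 0.05 by limma, 1 was higher and 4 were lower, where 11.9% of all genes tested reached that level and 5.55% were lower. Tubb3, the neuronal tubulin, was at 8.83 to 10.41 FPKM (young) against 11.26 to 12.69 FPKM (aged). Gap43, a growth cone protein, was at 226.03 to 243.2 and 199.5 to 216.9 FPKM. Elavl4, a neuronal RNA-binding protein, was at 3.68 to 4.95 and 2.49 to 3.25 FPKM, and the chemokine receptor Cxcr4 at 5.13 to 6.82 and 3.67 to 4.86 FPKM. The groups did not overlap for these 4 genes, and their limma adjusted p ran from 0.140 to 0.311. The list of CD24 ligands and partners held 2 tested genes, and 0 passed. The kinase Lyn was at 26.02 to 27.54 and 22.33 to 25.22 FPKM (limma adjusted p = 0.286), and the kinase Fyn overlapped between the ages.

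**Figure D3:**
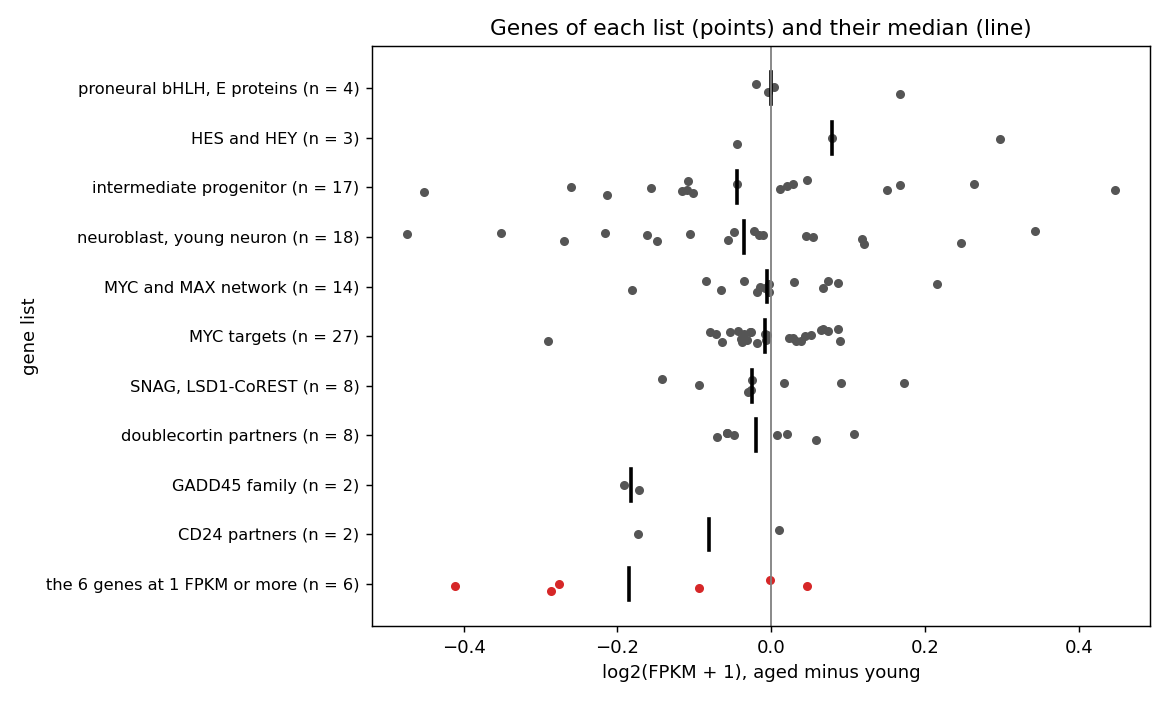
Difference of log2(FPKM + 1), aged minus young (horizontal axis), for the tested genes of 10 lists and for the 6 genes described here, with a point per gene and a line at the median. The list medians run from -0.18 for the GADD45 family and -0.082 for CD24 partners, with 2 genes each, to 0.079 for HES and HEY genes, and that of the 6 genes is -0.19.

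Ratios within a library do not depend on how libraries were scaled to each other. The pairs were chosen with the values known, so they are given without a test, and other pairs that were computed are not shown. The ratio of Cd24a to Hes6 was 1.48, 1.4 and 1.44 in young and 1.09, 1.17 and 1.15 in aged libraries. That of Insm1 to Hes6 was 0.162, 0.171 and 0.177 in young and 0.0982, 0.142 and 0.122 in aged libraries. In both the ages did not overlap. Hes6 itself overlapped between the ages, so both ratios largely repeat the Cd24a and Insm1 differences. The ratio of Gadd45g to Hes6 overlapped (means 0.519 ± 0.0594 and 0.468 ± 0.0305, SD, n = 3 each), and so did that of Myc to Mycn (18.7 ± 3.71 and 23.9 ± 3.34, SD, n = 3 each).

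**Figure D4:**
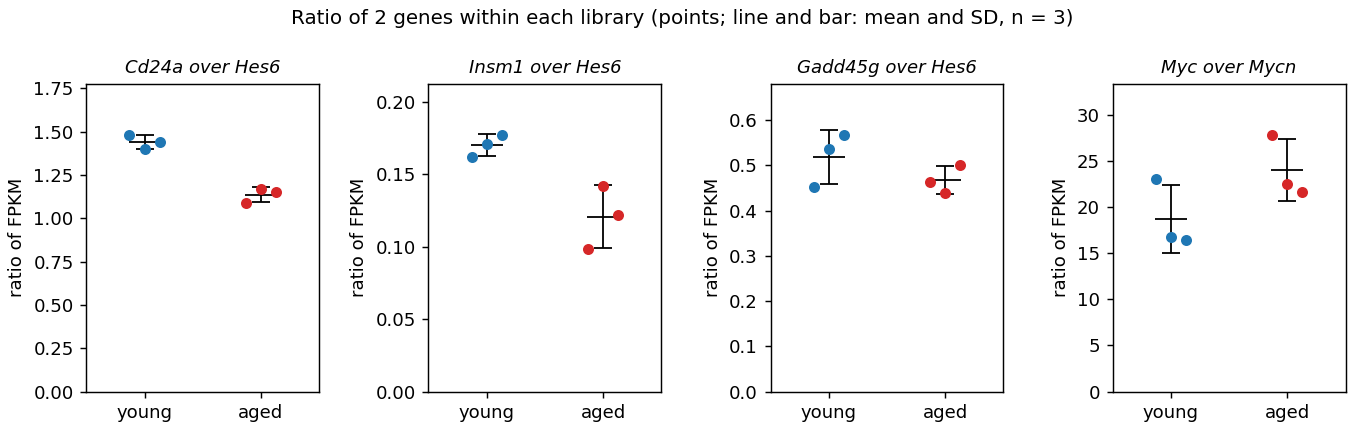
Ratio of FPKM of 2 genes within each library (vertical axis from 0), with a point per library and the mean and SD of each group. The ages are separate for Cd24a over Hes6 and Insm1 over Hes6, and overlap for Gadd45g over Hes6 and Myc over Mycn.

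Of the 5 genes whose values were most like those of Cd24a, 4 are given here: Ccnd2, Akap12, Col5a2 and Tnc. Likeness was the mean absolute difference over the 6 libraries between log2(FPKM + 1) values centred on each gene's mean, and it ran from 0.0212 for Ccnd2 to 0.0248 for Tnc. Akap12, a kinase scaffold, was at 48.99, 47.81 and 48.05 FPKM in young and at 38.06, 39.44 and 37.26 FPKM in aged libraries. Col5a2, a fibrillar collagen chain, was at 7.26 to 7.88 and 6.1 to 6.25 FPKM and had a limma adjusted p of 0.180, against 0.00398 to 0.0114 for the other 3. Because the genes were taken for their likeness to Cd24a, a lower aged level of about the same size was fixed by that choice, and these p-values support nothing. Without limma's trend those of the 3 were 0.0809 to 0.0953, and that of Akap12 was 0.0519 to 0.0574 without young 1, young 3 or aged 1.

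Markers of other cell types are given beside the Cd24a result, since CD24 is not limited to neuroblasts. Of 11 ependymal genes with a row, 4 were in the test and 0 passed. The summed level of the 11 was 27.58 to 32.55 FPKM (young) against 28.77 to 29.32 FPKM (aged), and Foxj1 and Rarres2 make up most of it. Of the 4 tested, 1 was higher and 0 lower in aged libraries without overlap (8.98% and 8.58% of all genes tested). This was Rsph1, at 0.95 to 1.43 and 1.62 to 1.80 FPKM. Foxj1, the regulator of motile cilia, lay at 8.49 to 12.74 FPKM, while Hydin and Tmem212 stayed at or under 0.26 FPKM. The summed level of 11 oligodendrocyte lineage genes was 2007 to 2049 FPKM (young) against 2124 to 2165 FPKM (aged), with no gene past the test. Olig1 (1386 to 1415 and 1461 to 1496 FPKM) and Olig2 (529.6 to 544.3 and 548.0 to 561.1 FPKM) make up most of this sum. Cnp lay at 65.77 to 77.40 FPKM, while Mog and Mag stayed at or under 0.22 FPKM. Of the 8 tested genes of this list, 5 were higher at an unadjusted p under 0.05 (11.9% of all genes tested in either direction), and 7 were higher without overlap (8.98% of all genes tested). Astrocyte genes summed to 490.7 to 496.5 and 486.8 to 496.6 FPKM, a sum of which Aldh1l1 makes up most. Of the 7, 0 passed, and 4 were higher and 2 lower in aged libraries without overlap (8.98% and 8.58% of all genes tested). Aldoc was at 78.00 to 85.02 and 93.22 to 101.98 FPKM, Aldh1l1 at 346.96 to 349.98 and 325.7 to 331.4 FPKM, and Gja1 at 29.53 to 32.13 and 25.37 to 28.88 FPKM. The sum of mature neuron genes was 165.6 to 166.4 and 158.0 to 164.1 FPKM, and Map2 makes up most of it. Map2 alone was at 129.00 to 131.12 and 119.97 to 127.02 FPKM. Of the 6 tested genes of this list 0 passed. In aged libraries 1 was higher and 2 were lower without overlap (8.98% and 8.58% of all genes tested). Vessel, pericyte and fibroblast genes summed to 0.77 to 1.68 and 3.25 to 4.09 FPKM, and in this list 3 collagens were higher in aged libraries without overlap. Col1a1 passed, with young values of 0.31 to 0.54 FPKM and aged values of 2.04 to 2.81 FPKM (limma adjusted p = 0.0107). Its young mean of 0.423 FPKM lay under the filter, and its aged mean was 2.46 FPKM. It thus entered the test only through the group where it is high, and its call gives no support. Under the filter, Col1a2 had values of 0 to 0.04 and 0.54 to 0.75 FPKM, and Col3a1 of 0 to 0.06 and 0.10 to 0.16 FPKM. Pdgfrb and Pecam1 were at 0 to 0.03 and 0 to 0.17 FPKM over all 6 libraries. Genes of microglia and blood summed to 3.07 to 4.23 and 3.16 to 3.85 FPKM, with Ptprc at 0 to 0.04 FPKM. The part of the oligodendrocyte, astrocyte, neuron and fibroblast levels in the Cd24a result was not tested.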

How the data were processed

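Libraries were built from total RNA after rRNA removal with MGI reagents, per the labels' protocols. The authors deposited 1 table per library with FPKM per gene in 2 decimals, per the file headers. The submitters' processing notes list TopHat, Cuffdiff and mm10 and give neither versions nor roles. The annotation, strand setting and scaling between libraries are not given in the sources used here. Gene identifiers were matched to a RefSeq table of GRCm38.p6 (16962 of 17006), and 25 symbols turned into dates or left blank were replaced from it. In the GENCODE annotation of that assembly, 0 other genes overlapped any of the 8.

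What 1 read is worth was set on values of 0.3 to 3.5 estimated reads in genes with a single transcript. By library, 77.0% to 81.1% of them came out whole within a tolerance of 0.15 (30% by chance), a share that is partly built in. Estimated reads use GENCODE transcript lengths and are approximate, above all for Dcx and Myc, which have 4 RefSeq transcripts each.

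FPKM are not counts, so no count test was used. Log2(FPKM + 1) was tested two-sided with limma 3.58.1 under R 4.3.3 (eBayes with a trend), on a scale that understates the change of low genes. Dcx and Tfap2c had means under 1 FPKM and were given by value, with an exact permutation test (scipy 1.17.1). Scripts used Python 3.11.15 with pandas 2.3.3. The fit was also run on simulated libraries, drawn independently with the same dispersion for every gene. That setting may differ from these data, so the run supports none of the calls. The 8 genes, the 18 lists, the tests and the alternatives were chosen with earlier results of these data known. Named list genes are up to 4 with the smallest adjusted p per list, family members of the 8 genes, and the 5 genes most like a called gene. Other list genes, such as Sox4, Neurod1, Neurog2, Kdm1a, Max, Ncl and Npm1, were named after their values were seen. Of the genes this rule took, 2 are not reported here. Alternatives covered the pseudocount, filter, scaling, limma's options, a replicate block and leaving out each library.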

Additional observations from a re-analysis of the deposited data

How the results depend on the processing

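Of the 8 genes, 1 passed (Cd24a), and this number was 0 without limma's trend, with the replicate block and without young 1 or young 2 (0 to 1 over the fits with a library left out). The adjusted p of Cd24a ran from 0.00781 to 0.101 over 17 alternatives and was 0.0643 with the replicate block. The direction was kept in every alternative run for Cd24a, Insm1, Hes6, Gadd45g and Mycn, and none of the last 4 passed in any (adjusted p of Insm1 0.0618 to 0.340). The log2 difference of Myc changed sign around 0, at 0.007 with array weights, 0.057 without young 2 and 0.056 without aged 2 (-0.035 to 0.057 with a library left out). Mycn has no value at a filter of 5 FPKM. Dcx was higher in aged libraries in each alternative, by 0.72 with a pseudocount of 0.1 and 0.079 with one of 5. Over all genes 86 passed, against 11 without the trend, 22 with the replicate block and 39 to 70 with a library left out. Of the list genes 2 passed (Dll3 and Col1a1), against 1 with a pseudocount of 5, 1 without the trend, 4 with robust variances, 0 with the replicate block and 1 to 2 with a library left out. With the block the adjusted p of Col1a1, which entered the test only through its aged values, was 0.0643. The cause of these differences was not tested. Deviations of same-numbered libraries correlated at 0.008, -0.072 and 0.108, against -0.109 to 0.111 for pairs of unlike number. Not every library correlated best with its own number. Deviations were taken from the mean of only 3 libraries, so whether the numbers mark shared processing cannot be told from these values. Depth limits Dcx, Mycn and Tfap2c most. No count alternative was run, because the values are FPKM.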

Other observations

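A few genes from the lists of other cell types and of neuroblasts lay apart between the ages at low level, and were picked after their values were seen. Snap25, a synaptic protein, was at 2.66 to 3.26 FPKM (young) against 3.68 to 5.22 FPKM (aged), whereas the neurofilament Nefm was at 2.79 to 3.52 and 2.21 to 2.28 FPKM. Neither passed limma (adjusted p = 0.1815 and 0.244), and 17.6% of all genes tested did not overlap between the ages. Under the filter of 1 FPKM, the multiciliated cell regulator Mcidas was at 0.4 to 0.52 FPKM (young) against 0.07 to 0.2 FPKM (aged). The polysialyltransferase St8sia2 was at 0.4 to 0.67 and 0.21 to 0.34 FPKM, and the myelin gene Mbp at 0.56 to 0.89 and 0.29 to 0.43 FPKM. Mean estimated reads per young and aged library were 5.93 and 1.79 for Mcidas, 15.9 and 7.15 for St8sia2, and 9.05 and 4.21 for Mbp. How many genes under the filter lay apart was not counted.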
